A study of Mus musculus with 32 samples.

Results

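Stac, Stac2 and Stac3 form the Stac family of adaptor proteins, and their 3 rows were taken from the 26331 named genes counted in each of 32 mouse forebrain RNA-seq libraries. The family was chosen by the counts of Stac, which were lower in labelled Kat6b knockout tissue at embryonic stage E12.5. The levels of all 3 genes in that comparison are therefore given as a description, without a test. Stac is followed here together with both relatives through every group, and the C57BL/6 wild-type change of Stac between the ages, which reuses the same E12.5 wild-type libraries, is a description as well.

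Tissue was dorsal telencephalon at E12.5 and cortex at E15.5, from embryos of 2 backgrounds. The C57BL/6 background held wild type and a labelled Kat6b knockout, with 3 libraries of each at E12.5 (replicates 1, 3 and 4, from 2 litters) and 5 of each at E15.5 (1 pair from each of 5 litters). The FVBxBALB/c background held wild type and a labelled Kat6b transgenic genotype (Tg), with 4 libraries of each per age. Kat6b encodes a lysine acetyltransferase that acts on histones. The deleted part of Kat6b and the promoter of the transgene were not given in the sources used here. Backgrounds were different sequencing batches, so background and batch cannot be told apart and no test was made between them. Labels of the FVBxBALB/c libraries name neither litter nor embryo, so p-values there measure only the spread between these samples, which may be technical.

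STAC proteins carry a cysteine-rich C1 domain and SH3 domains and bind L-type (CaV1) calcium channels, the voltage-gated channels that couple depolarisation to calcium entry. Stac3 is needed for excitation-contraction coupling in skeletal muscle, where it acts with the channel CaV1.1, encoded by Cacna1s, and the ryanodine receptor encoded by Ryr1. Stac and Stac2 are expressed in neurons, and both can reduce the calcium-dependent inactivation of CaV1 channels. In the embryonic forebrain, L-type channels are known to take part in neuronal differentiation and in the migration of interneurons.

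Total counts over named genes ranged from 10383066 to 49508669 per library. Levels are CPM, the counts of a gene divided by the library total times a trimmed-mean factor and scaled to 1000000. Kat6b lay between 120 and 189 CPM in the labelled knockout at E12.5 and between 157 and 193 at E15.5, against 150 to 224 in all wild-type libraries. Gene-level counts therefore do not check the knockout label. In Tg libraries Kat6b reached 461 to 580 CPM at the earlier age and 584 to 773 at the later one. Both C57BL/6 E15.5 libraries numbered 5 carry an E12.5 column name in their files, and the label of the knockout one gives dorsal telencephalon as its tissue. They lay at 48.8 and 49.3 on the first principal component, among the other E15.5 libraries (37.5 to 51.5) and apart from E12.5 (-99.4 to -51.3).

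Each member is a separate locus of the mm10 genome. Stac (Entrez 20840) spans chromosome 9 from 111561437 to 111690588 on the minus strand, Stac2 (Entrez 217154) chromosome 11 from 98036623 to 98053462 on the minus strand, and Stac3 (Entrez 237611) chromosome 10 from 127501617 to 127508823 on the plus strand. Reads of 66 bases could be told apart between them, since the longest run of bases shared by any pair of their annotated transcripts was 15, between Stac and Stac2. The library kit does not mark strand. An antisense gene, Gm43236 (chromosome 9, 111561423 to 111562036), overlaps an exon of Stac, and 171 of the 2704 windows of read length in Stac transcripts (6.32%) also occur in it. Reads from those windows cannot be assigned to either strand, and Gm43236 was not analysed here. Stac2 and Stac3 overlapped no other annotated gene.

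**Figure D1:**
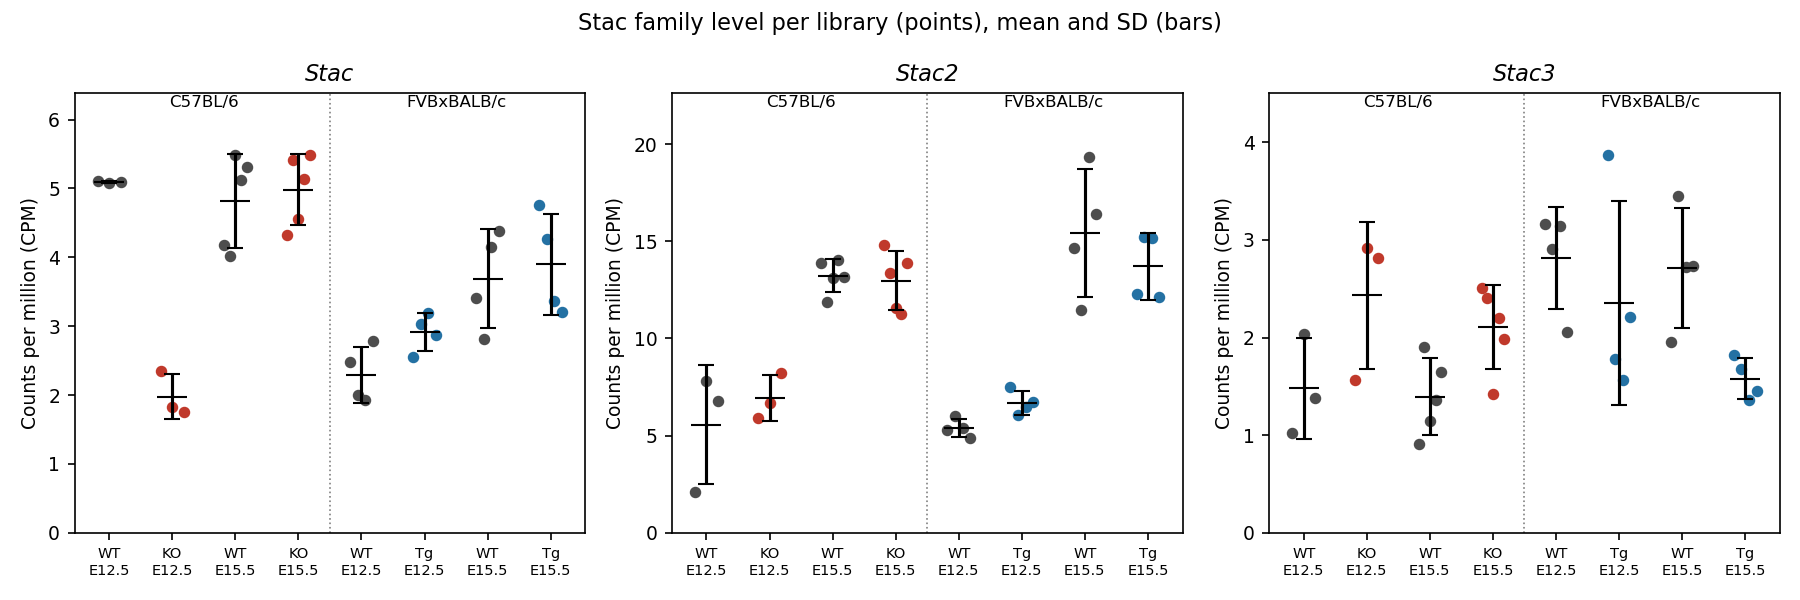
Level of Stac, Stac2 and Stac3 in CPM (y axis, linear) in each of the 8 groups (x axis); points are libraries, horizontal bars means and vertical bars SD, with n of 3 to 5. Stac is low in the 3 knockout libraries at E12.5 (1.75 to 2.35), Stac2 is higher at E15.5 than at E12.5 in every genotype, and Stac3 stays below 4 CPM throughout.

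All 3 transcripts were scarce, and the order of their means changed with age in C57BL/6, through 1 library at E12.5, but not in FVBxBALB/c. Per kilobase of counted length, C57BL/6 wild-type tissue at E12.5 held 2.02 ± 0.00469 CPM per kb of Stac, 1.83 ± 1.01 of Stac2 and 0.827 ± 0.289 of Stac3 (SD, n = 3). At E15.5 in the same background Stac2 stood first at 4.34 ± 0.279, ahead of Stac at 1.92 ± 0.270 and Stac3 at 0.778 ± 0.220 (n = 5). FVBxBALB/c wild-type tissue at E12.5 held 1.77 ± 0.153 CPM per kb of Stac2, 1.57 ± 0.291 of Stac3 and 0.913 ± 0.161 of Stac (n = 4). At E15.5 there the levels were 5.07 ± 1.08, 1.52 ± 0.342 and 1.47 ± 0.285 in that order (n = 4). By mean, Stac was thus level with Stac2 in C57BL/6 at E12.5 and below it in the other background, a difference that sequencing batch shares. The C57BL/6 order at E12.5 rested on wild-type replicate 1, with 0.681 CPM per kb of Stac2 and 2.03 of Stac. In replicates 3 and 4 Stac2 was already first, at 2.57 and 2.23 against 2.02 and 2.03.

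The first question of the design was what the labelled loss of Kat6b leaves of each adaptor at E12.5. Stac stood at 5.10, 5.08 and 5.09 CPM in wild-type replicates 1, 3 and 4 and at 2.35, 1.83 and 1.75 in the labelled knockout. Every knockout library was below every wild-type library, and the ratio of the fit was 0.387, a log2 fold change of -1.37. The means were 1.98 ± 0.324 CPM in the knockout and 5.09 ± 0.0118 in wild type (SD, n = 3 each). These rest on 57, 54 and 54 counts against 150, 229 and 96. The spread of the wild-type libraries was far below the counting error of any of them (0.336 to 0.520 CPM), so counting error, not that SD, limits their precision. Exact Poisson 95% intervals, which cover counting error only, ran from 4.13 to 6.22 CPM in wild-type replicate 4 and from 1.78 to 3.04 in knockout replicate 1, the pair that came closest. In this comparison 0.0062% of 16118 genes passed an adjusted p below 0.05 by edgeR, which is 1 gene, in the lower direction, and 0% in the higher direction. The value of Stac in these libraries chose the family, so neither that count nor the gap between the intervals is support for it.

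Neither relative was lower in the knockout at E12.5. Stac2 read 5.93, 6.68 and 8.22 CPM in the knockout and 2.07, 7.83 and 6.79 in wild type, a ratio of 1.25 that rests on wild-type replicate 1. Without that library the log2 fold change of Stac2 went from 0.32 to -0.075, so the direction turned. Stac3 read 1.56, 2.92 and 2.82 CPM against 1.02, 2.04 and 1.38, a ratio of 1.63 with overlapping groups.

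Markers of other cell types were read in the same libraries. Sums of the neuron markers overlapped (2670 to 3927 CPM in the knockout, 2632 to 3744 in wild type), as did those of radial glia (2716 to 3007 and 2668 to 3521). Intermediate progenitor markers summed to 643 to 717 CPM in the knockout and 725 to 827 in wild type, and upper-layer neuron markers to 618 to 720 and 728 to 846. Those 2 sums did not overlap between the genotypes. How many of all genes separate in this way was not counted, so the gap is only a description. Of the list members, 5 of 6 and 7 of 7 lay below a log2 fold change of 0, as did 53.1% of all genes. Other lists leaned to 1 side as far in the same libraries, with 6 of 7 deep-layer and 7 of 7 erythroid genes below 0 and 9 of 9 genes of meninges and 9 of 9 of skeletal muscle above it. No intermediate progenitor or upper-layer marker was at 0 counts in all libraries of a group. The part of these cell types in the level of Stac was not tested, and fewer cells of a type cannot be told apart from less RNA per cell in bulk tissue. Of these 6 libraries Xist was high (1083 CPM) in wild-type replicate 4 alone, and its part was not tested either.

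At E15.5 the knockout and wild-type levels of Stac overlapped fully. The labelled knockout held 4.32, 5.42, 4.56, 5.13 and 5.49 CPM of Stac and wild type 4.17, 4.01, 5.49, 5.12 and 5.32. Means were 4.98 ± 0.519 and 4.82 ± 0.680 (SD, n = 5 each). The ratio was 1.03 (95% interval 0.849 to 1.26, adjusted p = 1 by edgeR; exact two-sided permutation p = 0.619). Whether the knockout effect differs between the ages was not tested, because the E12.5 values chose the gene.

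Stac2 was also level at E15.5, with 11.2 to 14.8 CPM in the knockout (13.0 ± 1.52) and 11.9 to 14.1 in wild type (13.2 ± 0.851; n = 5 each). Its ratio was 0.984 (0.703 to 1.38, adjusted p = 1 by edgeR). Stac3 read 2.50, 2.41, 1.43, 2.21 and 1.99 CPM in the knockout against 0.907, 1.90, 1.15, 1.36 and 1.65 in wild type. Of the 5 knockout libraries 4 lay above the highest wild-type library, and the knockout embryo was the higher one in 5 of 5 litter pairs. The ratio of Stac3 was 1.48 (1.02 to 2.15) with an unadjusted p of 0.0417 and an adjusted p of 1 by edgeR, so it did not pass over all genes. The exact two-sided permutation p was 0.0317 without the pairing and 0.0625 within litter pairs, the smallest that 5 pairs allow. No gene passed at this age by edgeR (0% of 16118), although 456 had an unadjusted p below 0.05; DESeq2 called 7 and limma-voom 0. With litter as a block, as the labels pair these embryos, edgeR called 1 gene at E15.5 and 0 at E12.5, and none of the 3 adaptors passed at E15.5.

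The Tg libraries ask whether extra Kat6b moves the adaptors the other way. At E12.5 Stac read 2.55, 3.03, 3.19 and 2.87 CPM in Tg tissue and 2.48, 2.00, 1.92 and 2.78 in FVBxBALB/c wild type. Of the 4 Tg libraries 3 lay above the highest wild-type library. The ratio was 1.27 (0.946 to 1.70, adjusted p = 0.790 by edgeR; exact permutation p = 0.0571), which did not pass. At E15.5 Stac read 4.76, 4.27, 3.37 and 3.20 CPM against 3.41, 2.81, 4.15 and 4.39. Groups overlapped there, with a ratio of 1.06 (0.788 to 1.44, adjusted p = 1 by edgeR).

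Stac2 was higher in each of 4 Tg libraries at E12.5 (7.51, 6.05, 6.46 and 6.73 CPM) than in any wild-type library (5.27, 6.00, 5.39 and 4.88). The margin was narrow, 6.05 against 6.00 CPM, and the share of all genes with such a gap was not counted. Its ratio of 1.24 (0.995 to 1.55) had an unadjusted p of 0.0551 and an adjusted p of 0.758 by edgeR, while the exact permutation p was 0.0286, the smallest that 4 against 4 libraries allow. At this age 0.0129% of 15556 genes passed, which is 2 genes with Kat6b as 1 of them, all in the higher direction and 0% in the lower. The ventral telencephalon and interneuron markers summed to 763 to 1295 CPM in these Tg libraries and 658 to 1083 in wild type, with 11 of 12 members above a log2 fold change of 0 (47.4% of all genes) and none called. The list also had 11 of 12 members above 0 in the E12.5 knockout. There wild-type replicate 1 summed to 440 CPM, against 965 and 1244 in the other wild-type libraries. In the Tg comparison the lists of diencephalon, midbrain and hindbrain (0 of 9 above, median -0.87) and of endothelium and pericytes (0 of 7 above) lay the other way. The part of any of these in the Stac2 level was not tested. At E15.5 Stac2 read 12.3, 15.2, 15.2 and 12.1 CPM in Tg tissue against 14.6, 11.4, 19.3 and 16.4, a ratio of 0.891 (0.713 to 1.11, adjusted p = 1 by edgeR).

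Stac3, the muscle-type member, separated the genotypes at E15.5 in the opposite direction to the knockout, though without passing over all genes. All 4 Tg libraries (1.82, 1.67, 1.37 and 1.46 CPM) lay below all 4 wild-type libraries (1.95, 3.45, 2.72 and 2.73). How many of all genes separate in this way was not counted, so the gap is only a description. The ratio was 0.579 (0.376 to 0.892), with an unadjusted p of 0.0164 and an adjusted p of 1 by edgeR, and the exact permutation p was 0.0286, again the smallest possible. Here too 0.0129% of 15556 genes passed, which is 2 genes with Kat6b as 1 of them. By edgeR 346 had an unadjusted p below 0.05, and these Stac3 levels rest on 15 to 76 counts. At E12.5 Stac3 read 3.87, 1.78, 1.56 and 2.22 CPM in Tg tissue against 3.16, 2.90, 3.15 and 2.06, a ratio of 0.845 (0.570 to 1.25, adjusted p = 0.901 by edgeR). The change of the Tg effect from E12.5 to E15.5 was -0.55 on the log2 scale for Stac3, -0.48 for Stac2 and -0.25 for Stac, and all 3 had an adjusted p of 1.00 in edgeR. For Stac2 the unadjusted p of that difference was 0.0393.

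**Figure D2:**
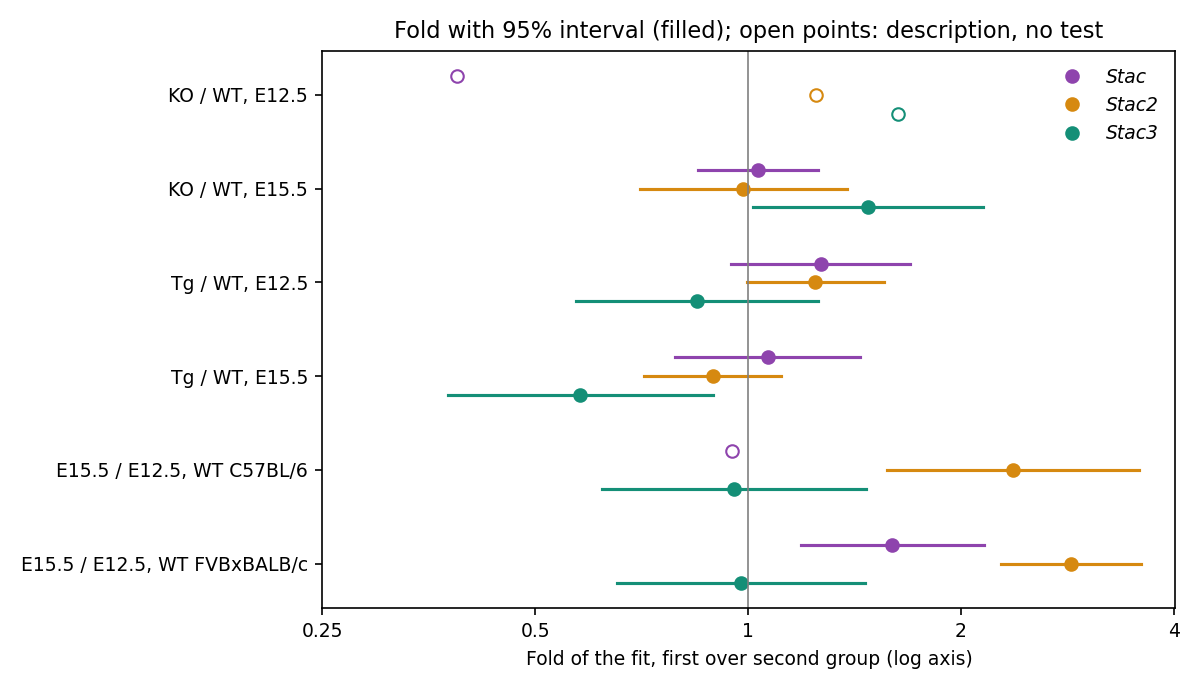
Ratio of the first to the second group (x axis, log scale) for Stac, Stac2 and Stac3 in 6 comparisons (y axis); filled points carry 95% intervals from the edgeR fit, and open points are descriptions without a test. Stac stands at 0.387 in the E12.5 knockout, and among the tested ratios the intervals of Stac2 with age lie clear of 1 in both backgrounds (1.57 to 3.57 and 2.28 to 3.59). That of Stac with age in FVBxBALB/c (1.19 to 2.16) also excludes 1. So do those of Stac3 at E15.5 in the knockout (1.02 to 2.15) and in Tg tissue (0.376 to 0.892), which did not pass over all genes.

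Between E12.5 and E15.5 the 3 adaptors took different courses. Stac2 rose in wild-type tissue of both backgrounds. In C57BL/6 it went from 2.07, 7.83 and 6.79 CPM to 13.9, 11.9, 13.1, 14.1 and 13.1, a 2.37-fold rise (1.57 to 3.57, adjusted p = 0.00124 by edgeR; exact permutation p = 0.0179, the smallest possible). In FVBxBALB/c it went from 5.38 ± 0.466 to 15.4 ± 3.30 CPM (SD, n = 4 each), a 2.86-fold rise (2.28 to 3.59, adjusted p = 7.16e-07 by edgeR). All E15.5 libraries lay above all E12.5 libraries in both backgrounds. Without C57BL/6 wild-type replicate 1 at E12.5 the log2 rise fell from 1.24 to 0.85 and still passed (adjusted p = 0.000191 by edgeR). Knockout and Tg libraries, which were not tested over age, were also separated, at 5.93 to 8.22 against 11.2 to 14.8 CPM and at 6.05 to 7.51 against 12.1 to 15.2. Ordered by mean, the 4 E15.5 groups (13.0 to 15.4 CPM) stood above the 4 E12.5 groups (5.38 to 6.94), and the 1 neighbouring pair that did not overlap was the knockout at both ages.

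Stac rose with age in FVBxBALB/c wild type, where 2.48, 2.00, 1.92 and 2.78 CPM at E12.5 became 3.41, 2.81, 4.15 and 4.39. That is 1.60-fold (1.19 to 2.16; log2 0.68, SE 0.204; adjusted p = 0.0110 by edgeR), and no library of E15.5 fell below one of E12.5. In C57BL/6 wild type Stac was level, at 5.09 CPM and then 4.82, a ratio of 0.949 given as a description. The knockout means were 1.98 CPM, then 4.98 at E15.5. Ordered by mean, Stac ran from C57BL/6 wild type at E12.5 (5.09 CPM) through the E15.5 groups of C57BL/6 and then FVBxBALB/c to Tg (2.91) and wild type (2.30) at E12.5, with the E12.5 knockout last (1.98). Every neighbouring pair in that order overlapped, including the E12.5 knockout and FVBxBALB/c wild type of the same age (1.75 to 2.35 and 1.92 to 2.78 CPM).

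Stac3 showed no change with age that passed. Its ratio was 0.955 in C57BL/6 (0.622 to 1.47, adjusted p = 0.859 by edgeR) and 0.977 in FVBxBALB/c (0.652 to 1.46, adjusted p = 0.928 by edgeR), and the intervals leave room for a change of about 1.5-fold either way. Ordered by mean, Stac3 ran from FVBxBALB/c wild type at E12.5 (2.82 CPM) to C57BL/6 wild type at E15.5 (1.39), and every neighbouring pair overlapped. The 3 age calls of the family (Stac2 in both backgrounds and Stac in FVBxBALB/c) were made where 56.8% of genes passed in C57BL/6 (28.6% higher, 28.2% lower) and 50.1% in FVBxBALB/c (25.1% in each direction). A call with age was therefore common, and tissue also differs between the ages by label.

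Genes of interneurons were among those whose levels ran most like Stac2 over the libraries. By the lower of its correlations in the 2 backgrounds (Pearson r of log2 CPM, 16 libraries each, both ages together), the genes most like Stac2 were Dpf1 (0.954), the neuropeptide genes Npy (0.952) and Sst (0.952), BC029214 (0.951) and Rai2 (0.949). After the group means were removed (32 libraries), Lhx6 came first at 0.911, then Npy at 0.877, Fam196a at 0.868, Sst at 0.861 and Nsmf at 0.855. Lhx6 encodes a transcription factor of interneurons born in the medial ganglionic eminence, and Sst and Npy are neuropeptides of such cells. C57BL/6 wild-type replicate 1 at E12.5, where Stac2 was 2.07 CPM, held 4.25 CPM of Lhx6, against 74.2 and 42.6 in replicates 3 and 4. The same library held 1.33 CPM of Sst, against 13.7 and 13.5.

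The within-group likeness of Stac2 was lower without that library, a check chosen after its values were seen. Then r over 31 libraries was 0.641 with Npy, 0.624 with Lhx6, 0.584 with Fam196a, 0.556 with Nsmf and 0.534 with Sst, and they ranked 14, 27, 52, 91 and 119 among 15447 genes in that order. The marker list of ventral telencephalon and interneurons summed to 440 CPM in that library, 965 and 1244 in the other wild-type libraries and 793 to 1337 in the knockout at E12.5. That library stood apart from replicates 3 and 4 in other ways too, with 1332 CPM of meningeal markers (431 and 577), 3521 of radial glia markers (2668 and 2779), 2632 of neuron markers (3744 and 3634) and the lowest value of the first principal component (-99.4). Lhx6 rose with age alongside Stac2, from a mean of 40.4 to 116 CPM in C57BL/6 wild type and from 52.6 to 121 in FVBxBALB/c wild type. Its part in the rise of Stac2 was not tested.

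**Figure D3:**
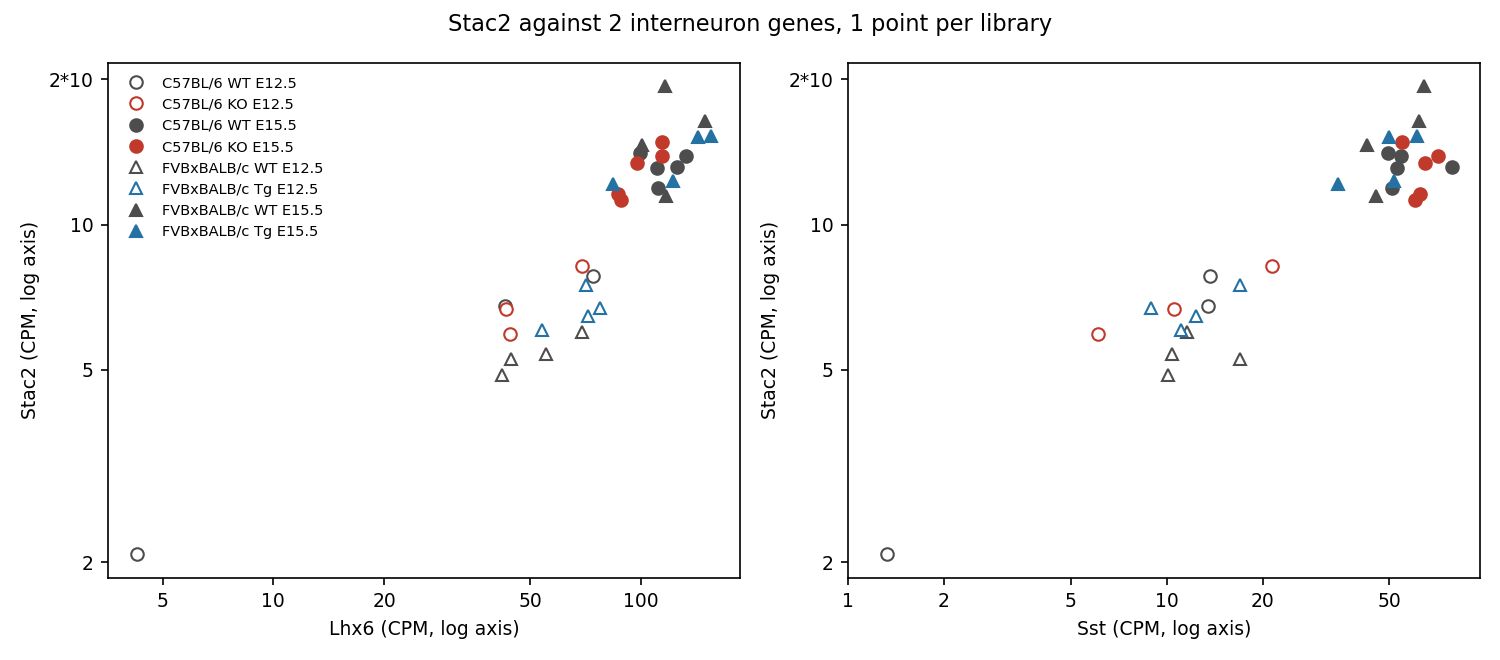
Stac2 (y axis, CPM, log scale) against Lhx6 and Sst (x axes, CPM, log scale), with 1 point for each of 32 libraries; open symbols are E12.5, filled E15.5, circles C57BL/6 and triangles FVBxBALB/c. The E15.5 libraries lie at 11.2 CPM of Stac2 or more, and 1 wild-type C57BL/6 library of E12.5 lies apart at 2.07 CPM of Stac2 and 4.25 CPM of Lhx6.

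For Stac and Stac3 the genes most alike within groups depended less on that library. The genes most like Stac in both backgrounds were Actr3b (0.762), Rab4a (0.761), Ddx24 (0.759), Abhd17c (0.749) and Lypd6 (0.744), and within groups Clpp (0.841), Snrpa (0.827), Tubb4b (0.823), Capzb (0.818) and Tubg1 (0.810). For Stac3 they were Leng8 (0.761), Rad9b (0.733), Meg3 (0.727), Fam227a (0.725) and Slc9a5 (0.725), and within groups Clasrp (0.834), Stag3 (0.831), Kcnt1 (0.806), Slc9a5 (0.798) and Ankrd16 (0.797). Without C57BL/6 wild-type replicate 1 at E12.5 the within-group r lay between 0.820 and 0.857 for those 5 genes of Stac and between 0.782 and 0.828 for those 5 of Stac3, above all 5 of Stac2 (0.534 to 0.641). Between the members, r after removing group means was 0.0271 for Stac with Stac2, -0.26 for Stac with Stac3 and 0.364 for Stac2 with Stac3. All these values come from shared libraries and are descriptions. For Stac, the C57BL/6 r with group means left in also uses the E12.5 libraries whose Stac values chose the family.

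Since Stac3 is the muscle member, muscle markers were read beside it. Of 19 listed skeletal muscle genes, the sum was 7.43 to 9.74 CPM in C57BL/6 wild type at E12.5 and 9.43, 31.9 and 10.8 in knockout replicates 1, 3 and 4. Replicate 3 held 50 counts of Myog and 30 of Myod1, the transcription factors of the muscle lineage, whereas wild type at that age held at most 1 count of Myog and 0 of Myod1. Stac3 stood at 1.56, 2.92 and 2.82 CPM in the same 3 knockout libraries, and the part of muscle tissue in these levels was not tested. Without replicate 3 the log2 fold change of Stac3 went from 0.70 to 0.55. At E15.5 the muscle sums were 20.0 to 24.9 CPM in the knockout and 16.6 to 26.2 in wild type, and 23.1 to 24.4 in Tg and 18.6 to 28.2 in FVBxBALB/c wild type. Most of the E15.5 sum was Neb (a mean of 15.7 CPM in C57BL/6 wild type), while Myog was at 0 counts in all FVBxBALB/c E15.5 libraries.

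The channels and coupling proteins with which the adaptors work were followed through a list of 23 genes, of which 21 passed the filter on low counts in C57BL/6 and 20 in FVBxBALB/c. None was called in a genotype comparison by edgeR, DESeq2 or limma-voom. At an unadjusted p below 0.05 by edgeR there was 1 of 21 in the E15.5 knockout (2.83% of all genes), 2 of 20 in Tg tissue at E12.5 (6.68%) and 0 of 20 at E15.5 (2.22%), so the counts were near those of all genes. In the E15.5 knockout 18 of 21 lay above a log2 fold change of 0 (median 0.072, all genes 0.0077), and in Tg tissue 8 of 20 at E12.5 (median -0.028) and 4 of 20 at E15.5 (median -0.078). In the E12.5 knockout, as a description, 14 of 21 lay above 0. Of all genes, 53.0%, 47.4%, 51.0% and 46.9% lay above 0 in these comparisons, in that order. Cacna1s, the channel that Stac3 serves in muscle, was near the limit of detection. It stood at 0.571 ± 0.107 CPM in the E15.5 knockout and 0.308 ± 0.102 in wild type (SD, n = 5 each), groups that did not overlap (1.81-fold, 1.03 to 3.19, adjusted p = 1 by edgeR). The share of all genes with such a gap was not counted, and gaps of the other partners between genotypes are not given here.

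With age most of these partners rose. In C57BL/6 wild type 18 of 21 were called higher and 1 lower (28.6% and 28.2% of all genes), with a median log2 fold change of 0.84 against -0.019 over all genes. In FVBxBALB/c 15 of 20 were called higher and 2 lower (25.1% each), with a median of 0.81 against -0.028. Among the pore-forming subunits, both neuronal L-type channels rose in both backgrounds. Cacna1d, encoding CaV1.3, rose 5.01-fold (3.91 to 6.43) in C57BL/6 and 3.22-fold (1.99 to 5.22) in FVBxBALB/c. Cacna1c, encoding CaV1.2, rose 2.98-fold (2.48 to 3.58) and 2.05-fold (1.55 to 2.70). Cacna1s rose 3.28-fold in C57BL/6 (1.47 to 7.33), where its mean went from 0.0784 to 0.308 CPM, and did not pass the filter in FVBxBALB/c. Cacna1f passed it in neither background.

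Ryanodine receptors, the calcium release channels of the endoplasmic reticulum, rose too. Ryr3 rose 4.84-fold and 3.26-fold, Ryr2 3.32-fold and 2.07-fold, and Ryr1 1.41-fold and 1.79-fold, in C57BL/6 and FVBxBALB/c in that order. The C57BL/6 call of Ryr1 ended without wild-type replicate 1 at E12.5 (adjusted p = 0.0896 by edgeR) and under 1 other setting. The FVBxBALB/c call of Ryr2 ended without any of 4 wild-type libraries (replicates 2 and 4 at each age; adjusted p up to 0.0745 by edgeR). Among auxiliary subunits, the β subunit gene Cacnb3, highest of its family per kilobase, rose 1.78-fold and 1.72-fold, and Cacnb1, Cacnb4, Cacna2d3 and the γ subunit gene Cacng1 were also called in both. Calls of Cacnb1 in FVBxBALB/c ended in 6 of 8 fits that left out 1 library and under 3 other settings. Those of Cacng1 in C57BL/6 ended in 3 of 8 such fits and under 1 other setting. Cacna2d1 (1.19-fold) and Cacna2d2 (1.54-fold) were called in C57BL/6, where Cacna2d1 was lost without wild-type replicate 4 at E12.5 or 1 at E15.5. In FVBxBALB/c their ratios were 1.02 and 1.04, and both turned below 1 without wild-type replicate 4 at E12.5 or 2 at E15.5, and for Cacna2d1 also without replicate 1 at E15.5.

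Junctophilins, which tether the plasma membrane to the endoplasmic reticulum, split. Jph4 rose 4.61-fold and 4.27-fold and Jph3 2.93-fold and 3.19-fold, whereas Jph1, a junctophilin of skeletal muscle, fell to 0.478 and 0.558 of its E12.5 level. The β subunit gene Cacnb2 fell to 0.709 in FVBxBALB/c, a call that ended in 3 of 8 fits without 1 library, and was at 0.932 in C57BL/6 without passing. Stac2 thus rose in the company of the neuronal channel genes, as 28.6% and 25.1% of all genes did.

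**Figure D4:**
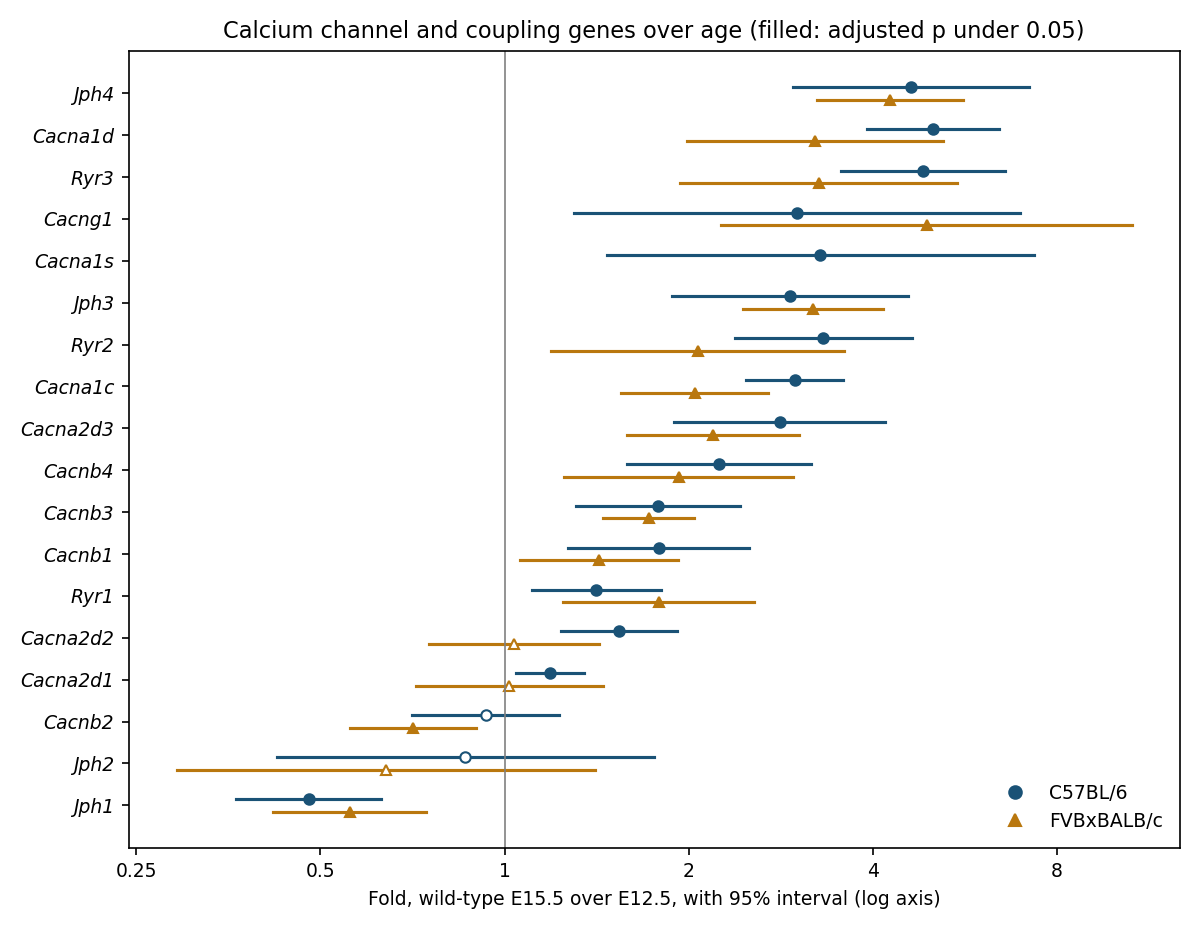
Ratio of wild-type E15.5 to E12.5 (x axis, log scale) with 95% intervals for the channel, ryanodine receptor and junctophilin genes that passed the filter (y axis); circles are C57BL/6, triangles FVBxBALB/c, and filled symbols passed an adjusted p below 0.05. Cacna1d, Ryr3 and Jph4 lie above 3 in both backgrounds and Jph1 lies below 1 in both.

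Genes beside the adaptors were read for the same comparisons. Within 1 Mb of Stac lay 28 genes of the files, of which 16 passed the filter in C57BL/6. Their log2 fold changes in the E12.5 knockout ran from -0.36 to 0.93. Stac was at -1.37 but was chosen for that drop, so its distance from them is only a description. The nearest ones on either side that passed the filter, Dclk3 and Arpp21, were at -0.084 and 0.073. Within 1 Mb of Stac2 lay 67 genes (53 kept in C57BL/6, 51 in FVBxBALB/c) and within 1 Mb of Stac3 78 (61 and 58 kept). Near Stac 14 were kept in FVBxBALB/c. Of the genes near Stac, Stac2 and Stac3, 0 were called by edgeR in the E15.5 knockout and 0 in Tg tissue at either age. At an unadjusted p below 0.05 the counts by edgeR were 0, 0 and 3 in the knockout, 1, 3 and 4 in E12.5 Tg tissue and 0, 1 and 0 in E15.5 Tg tissue, in that order of members, where 2.83%, 6.68% and 2.22% of all genes lay below that p. In the E12.5 knockout, as a description, the log2 fold changes ran from -0.93 to 1.30 near Stac2 and from -1.67 to 1.54 near Stac3, with 2 and 6 genes below that p (5.22% of all genes). With age Dclk3 rose by 2.63 and Arpp21 by 2.55 on the log2 scale in C57BL/6 wild type, where Stac was at -0.075. In FVBxBALB/c wild type Dclk3 rose by 2.71 and Arpp21 by 2.70, and Stac rose as well, by 0.68.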

How the data were processed

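Per the submitters' processing notes, bcl2fastq and featureCounts were used, with mm10 as genome. The aligner and annotation, with all settings and versions, were not given in the sources used here. The authors deposited unnormalized read counts, with a gene length column used here for CPM per kb alone. Of 27179 rows, 848 name no gene (0.305 to 2.00% of counts) and were left out. Genes were kept by filterByExpr (minimum count 10, minimum total 15), which left 16118 in C57BL/6 and 15556 in FVBxBALB/c. In each background 1 edgeR 4.0.16 quasi-likelihood fit (R 4.3.3, TMM, robust, 4 group means) gave F tests, Benjamini-Hochberg adjusted over all kept genes, called below 0.05, with intervals at 95%. Each SE was worked back from F, as absolute log2 fold change over its square root. Log2 CPM used a prior count of 2. Scripts were tested on simulated data.

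Members and gene lists were chosen with earlier results of these data known. Named were the members, partners called or of the channel families, the nearest neighbours within 1 Mb, and the 5 genes with the highest r by each measure. Alternatives were RLE scaling, DESeq2 1.42.0, limma 3.58.1 (voom), no filter, only the groups compared, replicate and litter blocks, leaving out libraries and exact permutation. Same-numbered C57BL/6 knockout and wild-type embryos share a litter by label. These numbers pair the samples at E15.5 and for replicate 1 at E12.5. Replicates 3 and 4 at E12.5 are all of 1 litter, so pairing them by number is arbitrary. The r of same-numbered deviations in C57BL/6 ran from -0.36 to 0.392. Positions come from RefSeq GRCm38.p6, to which 25275 Entrez identifiers matched. Overlaps and transcript sequences come from GENCODE vM21. Some members of the partner list are counted but not reported here by name.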

Additional observations from a re-analysis of the deposited data

How the results depend on the processing

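The replicate block and the litter block left 0 genes called in the E12.5 knockout, as did a fit of only the groups compared, against 1 without them, while DESeq2 called 5. Without 1 library the count was 0 to 2. In the E15.5 knockout the litter block called 1 gene, the fit of only the groups compared 2 and DESeq2 7, against 0. In Tg tissue DESeq2 called 6 at E12.5 and 7 at E15.5, and the fit of only the groups compared 4 at E15.5, against 2 each. The cause of these differences was not tested. The 1 gene called in the E12.5 knockout without a block was Stac, and both blocks ended that call. The value of Stac there chose the family, so neither that call nor its loss is a test of it. With the replicate block the log2 fold change with age was 1.30 and 1.51 for Stac2 in C57BL/6 and FVBxBALB/c and 0.68 for Stac in FVBxBALB/c, and it changed no call among the tested comparisons of a member. In FVBxBALB/c the samples share only a number: the r of same-numbered deviations ran from -0.14 to 0.604.

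Small differences changed sign. Stac2 in the E15.5 knockout was -0.023 and became 0.0028 with limma-voom and 0.084 without knockout replicates 3 and 4. Stac3 with age in FVBxBALB/c was -0.034 and became 0.053 with limma-voom, and Cacnb2 with age in C57BL/6 became 0.024 with the replicate block. Without 1 library, Stac ran from -0.017 to 0.097 in the E15.5 knockout and -0.029 to 0.18 in E15.5 Tg tissue, and Stac2 from -0.079 to 0.025 in the E15.5 knockout. Stac3 ran from -0.28 to 0.28 with age in C57BL/6 and -0.18 to 0.099 in FVBxBALB/c. Cacnb2 with age in C57BL/6 ran from -0.16 to 0.019, and Cacna2d1 and Cacna2d2 in FVBxBALB/c from -0.16 to 0.19 and -0.13 to 0.18. By exact permutation of CPM, Stac3 in the E15.5 knockout (0.60), Stac2 in E12.5 Tg tissue (0.31) and Stac3 in E15.5 Tg tissue (-0.78) passed 0.05 unadjusted, each with an adjusted p over 0.5 by edgeR. Age calls of Stac2 in both backgrounds and of Stac in FVBxBALB/c passed under every alternative run. Stac3 rests on 10 to 152 counts a library, which limits its precision. The check of likeness without 1 library and the permutation within litter pairs were chosen after seeing the data, and no r changed sign.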
